A study of Mus musculus with 12 samples.

Results

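The DNA replication and G1/S genes described here are 39 genes listed by symbol, 30 that license, fire or carry out DNA replication and 9 that act at the passage from G1 into S phase (3 D-type and 2 E-type cyclins, 3 cyclin-dependent kinases and E2f1). Of these, 38 were found among the 16116 genes of a deposited table of log2 CPM (read counts scaled to a common library total) from sorted mouse hepatocytes, and Pcna was not analysed here. A gene was kept for testing where its log2 CPM was at least 1 in at least 2 of the 12 libraries, which 10681 genes of the table met. Among the listed genes 35 were kept, 26 replication and 9 G1/S genes. Orc1, Cdc6 and Fen1 stayed below that level, with highest values of -0.34, 0.80 and 0.11 in any library. Ccnd2 was kept through 5 libraries, each from a group with activated YAP, and Ccne2 through 4, so the level of these genes sits near the limit of the filter.

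The series asked what the transcription factor gene Sox9 does in hepatocytes with activated YAP, the coactivator restrained by the Hippo kinase cascade. There were 6 groups of 2 libraries, all from mice given an adeno-associated virus (AAV2/8) at 3 weeks of age, with expression driven by the hepatocyte promoter TBG. The YAP Sox9-null group were Sox9 fl/fl mice given Cre and YAP S127A-P2A-GFP, a form of YAP without a main inhibitory phosphorylation site, and the YAP Sox9-heterozygous group were Sox9 fl/+ mice given the same viruses. Their controls were wild type mice given GFP, and cells of all 3 groups were sorted by GFP 3 weeks after injection. The Mst Sox9-null group carried floxed alleles of both Hippo kinase genes (Mst1 fl/fl and Mst2 fl/fl), Sox9 fl/fl and the reporter ROSA26-lsl-TdTomato. It received Cre, meant to remove both kinases, and the Mst Sox9-heterozygous group differed in carrying Sox9 fl/+. Cells of these groups were sorted by TdTomato 4 weeks after injection, and those of their controls, Mst1 fl/fl with Mst2 fl/fl and ROSA26-lsl-TdTomato mice given GFP without Cre, by GFP. Cells positive for Epcam or CD45 were removed from every group. No control received Cre or carried a floxed Sox9 allele, so against the controls the effect of YAP activation cannot be told apart from that of Cre or of the loss of 1 Sox9 allele. In the Mst experiment it cannot be told apart from the sorting colour either. Whether a group's 2 libraries are from different mice is not stated in the labels, and p-values then measure the spread between libraries, which may be technical.

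Before S phase, the origin recognition complex with Cdc6 and Cdt1 loads the Mcm helicase on replication origins, a step called licensing. Cyclin D with Cdk4 or Cdk6, and then cyclin E with Cdk2, phosphorylate the retinoblastoma protein and free E2F factors, which transcribe many replication genes. Cdc45 and the GINS complex then switch the helicase on, and polymerases, clamp loader, nucleotide-making enzymes and ligase copy the genome. Most hepatocytes of a resting adult liver are outside the cell cycle and re-enter it after tissue loss, and hepatocyte YAP activation is known to enlarge the liver.

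The promoters of 31 of the 39 genes were found in RefSeq (GRCm38.p6), as windows from 250 bases before to 50 after the start site. The E2F core was searched on both strands in any of these spellings: the letters TTTCCCG, otherwise the letters TTTGGCG, otherwise the letters TTTCGCG, otherwise the letters TTTGCCG, counting a gene when any of its windows held a match. It was present in 14 of the 31 genes (45.2%), against 13.1% of 8293 kept genes and 7.65% of 27025 genes with a promoter of the same length. The 31 are not all kept genes: they include Pcna, without a core, and Orc1, Cdc6 and Fen1, each with a core. Among replication genes 13 of 25 held the core (52.0%), and among G1/S genes 1 of 6, Cdk2. Of these G1/S genes, E2f1 and Cdk6 had windows wholly inside the gene as placed by GENCODE M21. The bases before those gene starts were not searched. The CCAAT box was in 18 of 31 (58.1%, against 42.8% of kept genes), TTTGAA, the core of the cell cycle homology region, in 3 (9.68% against 14.1%) and GGAATG, the element read by the YAP partner TEAD, in 4 (12.9% against 14.1%). Genes of the list without a window there were Mcm4, Gins1, Gins2, Rfc2, Pole, Ccnd1, Ccnd2 and Ccne2. Matches describe letters and do not show binding. Shown here 5′ to 3′, with E2F cores in capitals, are the promoters of 3 genes that rose in at least 1 comparison (Mcm6, Cdt1 and Rrm2) and of Mcm10, the gene that fell. The windows are chr1:128359656-128359955 on the minus strand for Mcm6, chr8:122567765-122568064 on the plus strand for Cdt1, chr2:5012742-5013041 on the minus strand for Mcm10 and chr12:24708004-24708303 on the plus strand for Rrm2.
Mcm6: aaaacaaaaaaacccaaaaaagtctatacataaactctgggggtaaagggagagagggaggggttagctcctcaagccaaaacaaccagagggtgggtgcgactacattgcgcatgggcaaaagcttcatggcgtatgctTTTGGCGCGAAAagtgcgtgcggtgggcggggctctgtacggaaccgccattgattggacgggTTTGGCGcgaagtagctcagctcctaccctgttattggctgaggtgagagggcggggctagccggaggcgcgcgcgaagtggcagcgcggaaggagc
Cdt1: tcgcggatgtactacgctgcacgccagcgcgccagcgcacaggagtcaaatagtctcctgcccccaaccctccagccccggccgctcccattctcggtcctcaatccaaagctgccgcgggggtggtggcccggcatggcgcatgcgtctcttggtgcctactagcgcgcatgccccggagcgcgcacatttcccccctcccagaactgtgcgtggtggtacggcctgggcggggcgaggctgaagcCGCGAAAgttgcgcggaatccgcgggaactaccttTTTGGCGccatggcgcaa
Mcm10: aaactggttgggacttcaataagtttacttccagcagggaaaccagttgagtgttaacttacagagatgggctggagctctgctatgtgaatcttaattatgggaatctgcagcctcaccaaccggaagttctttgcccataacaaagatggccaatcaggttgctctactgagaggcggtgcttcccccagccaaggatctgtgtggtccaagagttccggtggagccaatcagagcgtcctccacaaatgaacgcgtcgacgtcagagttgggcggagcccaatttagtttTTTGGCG
Rrm2: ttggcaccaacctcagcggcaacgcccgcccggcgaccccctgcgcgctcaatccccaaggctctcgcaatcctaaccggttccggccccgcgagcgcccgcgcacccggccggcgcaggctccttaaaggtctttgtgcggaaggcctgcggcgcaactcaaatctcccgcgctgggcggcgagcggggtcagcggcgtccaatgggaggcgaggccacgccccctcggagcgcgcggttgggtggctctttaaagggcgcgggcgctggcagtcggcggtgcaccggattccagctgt
Mcm6 held 3 cores, the first pair of which overlap on opposite strands, Cdt1 held 2, and Mcm10 held 1 at the very end of its window. Rrm2 held none of these spellings in its window. Whether the cores go with the size of a gene's difference was not tested.

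The labels were first checked on Sox9 itself. Sox9 stood at 2.28 and 2.62 in YAP Sox9-null libraries, against 4.41 and 5.28 in YAP Sox9-heterozygous ones, a difference of -2.40 ± 0.38 (log2, SE; adjusted p = 0.0132). With Mst deletion it was 1.41 and 1.29 in Sox9-null and 6.47 and 6.0 in Sox9-heterozygous libraries, a difference of -4.89 ± 0.38 (adjusted p = 6.31e-06). Stk4, the gene of Mst1, was 4.49 and 4.09 in Mst Sox9-null, 4.25 and 4.74 in Mst Sox9-heterozygous and 4.89 and 4.82 in floxed GFP libraries. Stk3, the gene of Mst2, was 3.98 and 4.45, 4.23 and 4.03, and 4.04 and 3.78 in the same groups, and so did not lie below its controls. These mRNA levels do not by themselves show the loss of both kinases. Hepatocyte markers (8 of 10 listed were in the table) summed to 66210 to 100529 CPM per library, a sum made up mostly of Alb, and limma called 0 of the 8 in the comparisons with the controls (1, 1, 1 and 2 at an unadjusted p under 0.05 in the YAP Sox9-null, YAP Sox9-heterozygous, Mst Sox9-null and Mst Sox9-heterozygous groups). Within the list Ttr lay below its controls without overlap in all 4 comparisons (-1.01, -0.83, -1.33 and -1.30 in the same order), and Hnf4a in the YAP and Mst Sox9-heterozygous groups (-0.70 and -0.71). In Mst Sox9-null cells 2 of the 8 lay above their controls without overlap (Alb and Apob) and 2 below (Ttr and Fgb). In each other group 0 lay above without overlap. Differences above zero numbered 3, 1, 4 and 4 of the 8 in the same order. The share of all kept genes without overlap was not counted for these comparisons. Of the markers found in the table, none of 4 for T and NK cells, 4 for B cells and 4 for neutrophils reached log2 1 in both libraries of any group. Of 5 erythroid markers 1 was in the table, Alas2, with a control mean of 5.87. It differed from control by -0.82, -0.24, -1.05 and -1.205 in the YAP Sox9-null, YAP Sox9-heterozygous, Mst Sox9-null and Mst Sox9-heterozygous groups and was not called.

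Markers of endothelial cells were higher in every group with activated YAP than in its controls. Of 15 listed, 14 were kept, and each of the 14 lay above zero in all 4 comparisons with the controls, with 6, 2, 9 and 8 called higher in the YAP Sox9-null, YAP Sox9-heterozygous, Mst Sox9-null and Mst Sox9-heterozygous groups. Of the 14, Erg was kept through 4 libraries, all from groups with activated YAP, so no support is drawn from it. The summed level of the endothelial markers was 184 to 345 CPM in YAP Sox9-null, 122 to 197 in YAP Sox9-heterozygous and 33.2 to 79.5 in wild type GFP libraries. With Mst deletion it was 403 to 436 CPM in Sox9-null, 380 to 519 in Sox9-heterozygous and 48.7 to 52.3 in floxed GFP libraries. Macrophage markers summed to 60.3 to 97.2, 43.9 to 46.5 and 19.6 to 75.6 CPM in the same YAP groups, and to 71.4 to 298, 43.6 to 140 and 29.5 to 40.7 CPM in the Mst groups. Of 8 kept macrophage markers, 8, 5, 8 and 8 lay above zero in the YAP Sox9-null, YAP Sox9-heterozygous, Mst Sox9-null and Mst Sox9-heterozygous groups. In that order 0, 0, 2 and 0 of them were called higher, against 6.64%, 1.4%, 6.88% and 3.45% of all kept genes. Between Sox9-null and Sox9-heterozygous groups 0 endothelial markers were called by limma, with a median difference of 0.68 under YAP S127A and -0.05 with Mst deletion. Stellate cell markers summed to 27.2 to 53.1, 22.3 to 48.3 and 29.2 to 38.2 CPM in the YAP Sox9-null, YAP Sox9-heterozygous and wild type GFP libraries, and to 53.9 to 77.8, 33.9 to 53.1 and 31.0 to 35.1 CPM in the Mst Sox9-null, Mst Sox9-heterozygous and floxed GFP libraries. Of 5 kept stellate markers, 4 lay above zero in each of the 4 comparisons with the controls. None was called in the YAP groups, and 1 was called higher in each Mst group. Reln, the most abundant of them in the controls (mean 4.38), lay below zero in each comparison. Cholangiocyte markers summed to 1151 to 1255, 1711 to 2438 and 126 to 304 CPM in the YAP groups and to 3568 to 3689, 3090 to 3182 and 188 to 190 CPM in the Mst groups, in the same order. Nearly the whole of that sum was Spp1, at log2 10.28 and 10.15 in YAP Sox9-null, 10.71 and 11.22 in YAP Sox9-heterozygous and 8.16 and 6.78 in wild type GFP libraries, and at 11.85 and 11.80, 11.59 and 11.56, and 7.37 and 7.45 in the Mst groups. Under YAP S127A Epcam was 1.51 and 1.92 in Sox9-null and 3.14 and 2.14 in Sox9-heterozygous libraries, against 0.83 and 0.83 in wild type GFP ones. Epcam was kept through 5 libraries, all from groups with activated YAP, so no support is drawn from this separation. With Mst deletion Epcam differed from control by 0.005 in Sox9-null and 0.105 in Sox9-heterozygous cells and Sox9, the targeted gene, by -2.38 and 2.5. Krt7, Krt19 and Cftr did not pass the filter. The part of these cell types in the results on the listed genes was not tested.

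More of the listed genes were called in the YAP Sox9-null group than in the other 3 groups with activated YAP. Of the 35 kept, 9 rose and 1 fell against the wild type GFP controls, where rising and falling are limma calls at a Benjamini-Hochberg adjusted p under 0.05 over all kept genes. Those called higher made up 6.64% of all kept genes and those called lower 0.477%. The genes that rose were Ccnd1, Rrm2, Pold1, Lig1, E2f1, Mcm2, Mcm6, Prim1 and Cdk4, and Mcm10 fell. The difference was above zero for 33 of the 35, as for 69.0% of all kept genes, and its median was 0.97, against 0.21 over all kept genes. Ccnd2 is included in these counts and medians against control, here and below. It was kept only through groups with activated YAP, so no support is drawn from its part in them. In the YAP Sox9-heterozygous group, Ccnd1 and Rrm2 rose and 0 fell (1.4% of all kept genes were called higher and 0.169% lower), and the median was 0.56 against 0.07. An unadjusted p under 0.05 was reached by 24 of the 35 in YAP Sox9-null, 7 in YAP Sox9-heterozygous, 13 in Mst Sox9-null and 3 in Mst Sox9-heterozygous cells, against 2224, 1131, 2085 and 1723 of 10681 kept genes.

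With Mst deletion 4 genes were called in the Sox9-null group, against 10 under YAP S127A, and 2 in the Sox9-heterozygous group, as under YAP S127A. Whether the experiments differ in the difference from control is tested further on for the Sox9-heterozygous groups only. For the Sox9-null groups it was not tested. In the Mst Sox9-null group 3 of the 35 rose (Ccnd1, Cdk6 and Cdt1) and Mcm10 fell against the floxed GFP controls, where 6.88% of all kept genes were called higher and 0.88% lower. The median difference was 0.52, against 0.17 over all kept genes, and 29 of 35 lay above zero, as did 66.9% of all kept genes. In the Mst Sox9-heterozygous group Ccnd1 rose and Mcm10 fell, with 3.45% of all kept genes called higher and 0.796% lower. There the median was 0.01, against 0.08 over all kept genes, and 18 of 35 lay above zero, against 59.0% of all kept genes. The medians moved with single libraries: to 0.32 in YAP Sox9-heterozygous cells without their first library, to 0.29 in Mst Sox9-null cells without their first library, and in Mst Sox9-heterozygous cells to 0.28 and -0.19 without their first and second library and to 0.13 and -0.01 without the first and second floxed GFP library. Over all omissions they ran from 0.81 to 0.99 in YAP Sox9-null, 0.32 to 0.81 in YAP Sox9-heterozygous, 0.29 to 0.70 in Mst Sox9-null and -0.19 to 0.28 in Mst Sox9-heterozygous cells. The control means of both experiments were nearly equal in the deposited table, so these comparisons share their baseline. The differences between libraries of a group also appeared to have been multiplied by a factor that varied from gene to gene (median 1.58 over kept genes), and on the values before that step 25, 8, 15 and 5 of the 35 were called, against 2938, 1223, 2817 and 2108 of all 10681 kept genes, in the YAP Sox9-null, YAP Sox9-heterozygous, Mst Sox9-null and Mst Sox9-heterozygous groups. Over all 38 genes in the table with no filter, the medians were 0.97 and 0.45 for the YAP Sox9-null and Sox9-heterozygous groups and 0.49 and -0.04 for the Mst Sox9-null and Sox9-heterozygous groups.

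The counts moved with single libraries; where a group is left with 1 library, that library is assumed to vary like the other groups. Without the first wild type GFP library, 3 genes were called in the YAP Sox9-null group, and without its own first or second library 5 or 4, while the calls over all kept genes were 354, 478 and 326, against 760 with all libraries. In the YAP Sox9-heterozygous group 1 was called without its first library or without the second wild type GFP library, and in the Mst Sox9-heterozygous group 1 without its first library (121 and 130 of all kept genes against 168, and 490 against 454). In the Mst Sox9-null group 2 were called without the first or the second floxed GFP library or without its own first library, while 7 and 6 were called without the first and the second Mst Sox9-heterozygous library; over all kept genes these calls were 383, 447, 347, 876 and 873, against 829.

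**Figure D1:**
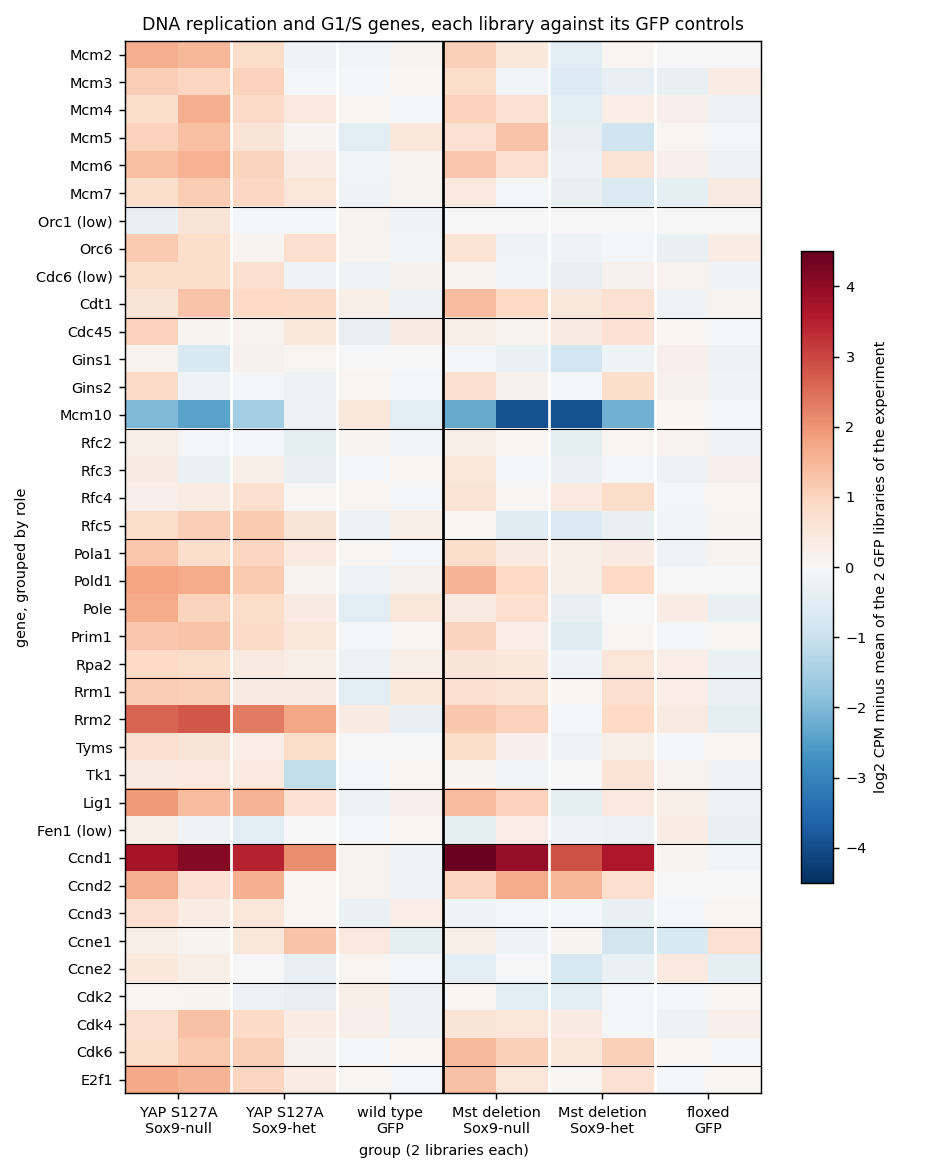
Difference of each library (columns, 2 per group) from the mean of the 2 GFP libraries of its experiment, in log2 CPM, for the 38 genes found, with rows grouped by role and red for higher. Ccnd1 is deep red in the 8 libraries with activated YAP and Mcm10 is blue in the 4 Mst libraries and in both YAP Sox9-null ones.

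Ccnd1 encodes cyclin D1, which activates Cdk4 and Cdk6 in G1, and lies at chr7:144929931-144939925 on the minus strand of GRCm38 (GENCODE M21). Its log2 CPM was 8.46 and 8.84 in YAP Sox9-null, 8.16 and 6.80 in YAP Sox9-heterozygous and 4.88 and 4.54 in wild type GFP libraries. With Mst deletion it was 9.15 and 8.67 in Sox9-null, 7.58 and 8.32 in Sox9-heterozygous and 4.81 and 4.59 in floxed GFP libraries. The 8 libraries with activated YAP all lay above the 4 controls. Against the controls the difference was 3.94 ± 0.37 in YAP Sox9-null (15.3-fold; adjusted p = 8.67e-06), 2.77 ± 0.37 in YAP Sox9-heterozygous (6.84-fold; 0.000678), 4.21 ± 0.37 in Mst Sox9-null (18.5-fold; 2.62e-06) and 3.25 ± 0.37 in Mst Sox9-heterozygous cells (9.53-fold; 6.64e-05). These 4 calls held without each library in turn, at 2.09 to 4.45. Its exons share bases with a gene on the opposite strand, LTO1, and the sources used here do not state whether reads were assigned by strand. Each gene was read through a single amplified stretch. Whether that stretch lies in shared bases was not examined, here or for the overlaps named below.

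The other D-type cyclins were not called in any comparison. Ccnd2 had values of 1.80 and 0.83 in YAP Sox9-null, 1.77 and 0.25 in YAP Sox9-heterozygous and 0.32 and 0.01 in wild type GFP libraries. In the Mst experiment they were 1.10 and 1.82, 1.64 and 0.92, and 0.15 and 0.15, in Sox9-null, Sox9-heterozygous and floxed GFP libraries. Only the second YAP Sox9-heterozygous library overlapped its controls, and Ccnd2 was not called (differences of 0.85 to 1.31). Ccnd2 was kept only through groups where it is high, so no support is drawn from this separation. Ccnd3 stood at 5.37 and 4.97 in YAP Sox9-null, 5.19 and 4.74 in YAP Sox9-heterozygous and 4.35 and 4.94 in wild type GFP libraries. It was 4.47 and 4.58, 4.59 and 4.32, and 4.56 and 4.73 in the Mst Sox9-null, Mst Sox9-heterozygous and floxed GFP libraries. Its YAP Sox9-null libraries lay just above the wild type GFP ones, and the other groups overlapped their controls.

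Each of the kinases that cyclin D activates rose in 1 of the Sox9-null groups, Cdk4 under YAP S127A and Cdk6 with Mst deletion. Cdk4 was 6.32 and 6.92 in YAP Sox9-null, 6.46 and 5.92 in YAP Sox9-heterozygous and 5.83 and 5.36 in wild type GFP libraries, a difference of 1.02 ± 0.29 for Sox9-null against control (adjusted p = 0.0414). In the Mst groups it was 6.18 and 6.16 in Sox9-null, 5.98 and 5.53 in Sox9-heterozygous and 5.38 and 5.82 in floxed GFP libraries, and was not called (0.57 ± 0.29 for Sox9-null). Cdk6 was 6.40 and 6.0 in Mst Sox9-null, 5.40 and 5.99 in Mst Sox9-heterozygous and 5.03 and 4.84 in floxed GFP libraries, a difference of 1.27 ± 0.30 for Sox9-null against control (adjusted p = 0.0146). Both Sox9-null libraries lay above the controls for either kinase. Cdk6 in the YAP groups was 5.73 and 6.10, 5.99 and 5.13, and 4.84 and 5.03, for Sox9-null, Sox9-heterozygous and wild type GFP, with 0.98 ± 0.30 for Sox9-null (adjusted p = 0.0600). The Cdk4 call ended without the first (1.26) or second wild type GFP library (0.79) or the second YAP Sox9-null one (0.72), and the Cdk6 call without the first (1.37) or second floxed GFP library (1.17) or the first Mst Sox9-null one (1.07). Exons of Cdk4 and Cdk6 share bases with genes on the opposite strand, Tspan31 and Gm17590.

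Cyclin E and its partner Cdk2, which act after cyclin D, were not called in any comparison. Cdk2 was 4.36 and 4.39 in YAP Sox9-null, 4.00 and 3.89 in YAP Sox9-heterozygous and 4.54 and 4.01 in wild type GFP libraries, and 4.31 and 3.78, 3.77 and 4.23, and 4.22 and 4.31 in the corresponding Mst groups. Ccne1 was 1.47 and 1.32 in YAP Sox9-null, 1.71 and 2.47 in YAP Sox9-heterozygous and 1.65 and 0.76 in wild type GFP libraries. The Mst Sox9-null libraries had 1.44 and 0.98, the Mst Sox9-heterozygous ones 1.30 and 0.36 and the floxed GFP ones 0.50 and 1.88. The values of Ccne1 overlapped between each Sox9 group and its controls except for YAP Sox9-heterozygous, which lay above them by a small margin. Ccne2 ranged from 0.25 to 1.45 over the 12 libraries, with 1.45 and 1.24 in YAP Sox9-null, 0.99 and 0.62 in YAP Sox9-heterozygous and 1.07 and 0.89 in wild type GFP libraries. With Mst deletion Ccne2 was 0.47 and 1.0 in Sox9-null, 0.25 and 0.66 in Sox9-heterozygous and 1.40 and 0.54 in floxed GFP libraries.

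E2f1, the transcription factor freed when cyclin D and cyclin E kinases act on the retinoblastoma protein, lies at chr2:154559407-154569892 on the minus strand. It stood at 4.71 and 4.53 in YAP Sox9-null, 3.96 and 3.34 in YAP Sox9-heterozygous and 3.05 and 2.95 in wild type GFP libraries. The 3 groups did not overlap, and the Sox9-null difference from control was 1.62 ± 0.33 (3.07-fold; adjusted p = 0.00566), a call that ended without the first YAP Sox9-null library (1.53). With Mst deletion it was 4.35 and 3.59 in Sox9-null, 3.07 and 3.69 in Sox9-heterozygous and 2.95 and 3.10 in floxed GFP libraries. There the Sox9-null libraries lay above the controls, at 0.95 ± 0.33 (adjusted p = 0.0972), and the Sox9-heterozygous ones overlapped them.

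**Figure D2:**
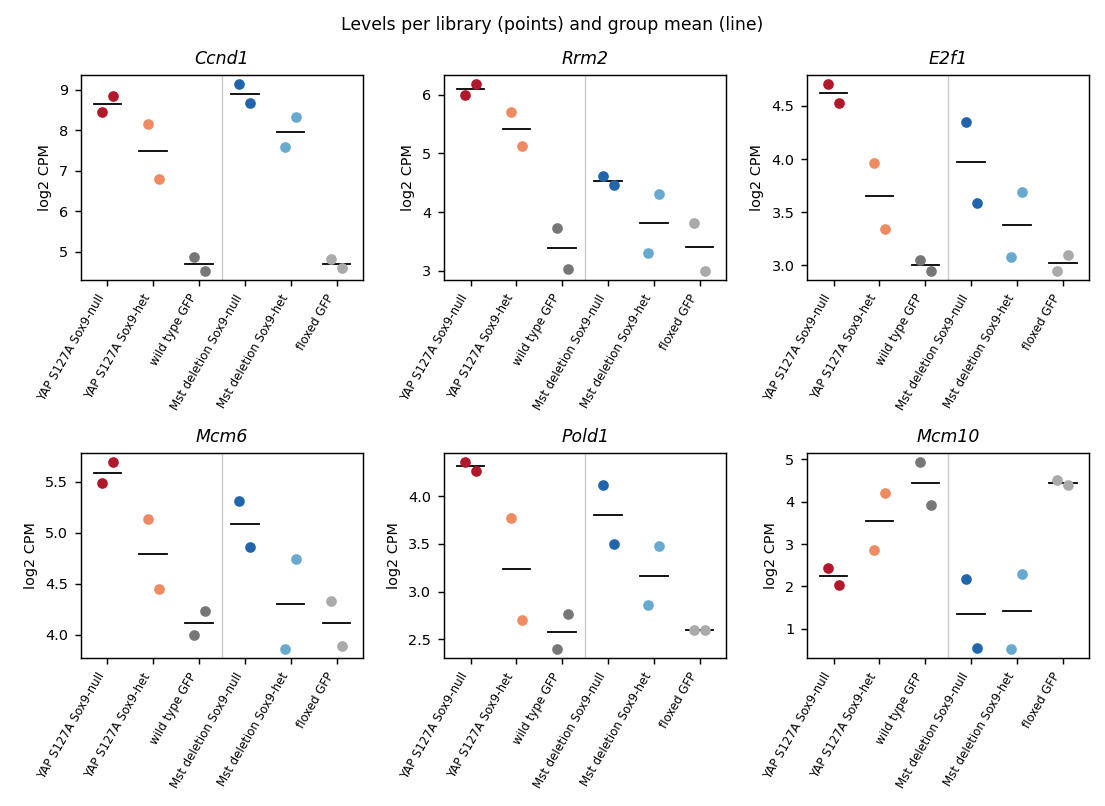
log2 CPM per library (points) and group mean (line) of Ccnd1, Rrm2, E2f1, Mcm6, Pold1 and Mcm10 in the 6 groups, with a separate vertical scale for each gene. Ccnd1 is high in all groups with activated YAP, Rrm2 is higher in the YAP groups (5.12 to 6.19) than in the Mst groups (3.31 to 4.62), and the group means of Mcm10 are lowest with Mst deletion.

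Of the licensing genes, the 6 helicase subunits all lay above zero in the Sox9-null groups. Their median difference from control was 1.21 in YAP Sox9-null (range 0.97 to 1.55) and 0.57 in YAP Sox9-heterozygous cells (0.33 to 0.74). With Mst deletion the median was 0.81 in Sox9-null (0.20 to 1.0) and -0.34 in Sox9-heterozygous cells (-0.65 to 0.19). Mcm2 and Mcm6 rose, both in YAP Sox9-null cells, and the other 4 subunits did not pass the test in any comparison.

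Mcm6, at chr1:128331590-128359664 on the minus strand, was 5.48 and 5.69 in YAP Sox9-null, 5.14 and 4.45 in YAP Sox9-heterozygous and 4.00 and 4.24 in wild type GFP libraries. Those 3 groups did not overlap, and the Sox9-null difference was 1.47 ± 0.32 (2.77-fold; adjusted p = 0.0103). In the Mst experiment it was 5.31 and 4.86 in Sox9-null, 3.86 and 4.74 in Sox9-heterozygous and 4.33 and 3.89 in floxed GFP libraries, where the heterozygous libraries spanned the controls (Sox9-null 0.98 ± 0.32, adjusted p = 0.0823). Mcm2 was 4.72 and 4.58 in YAP Sox9-null, 3.92 and 2.95 in YAP Sox9-heterozygous and 2.99 and 3.21 in wild type GFP libraries, a difference of 1.55 ± 0.34 (2.93-fold; adjusted p = 0.0109). Mcm2 in the Mst groups was 4.20 and 3.58, 2.63 and 3.21, and 3.11 and 3.13 for Sox9-null, Sox9-heterozygous and floxed GFP. The Mcm6 call ended without the first wild type GFP library (1.35) or the second YAP Sox9-null one (1.37), and the Mcm2 call without the first wild type GFP library (1.44) or either YAP Sox9-null library (1.48 without the first, 1.62 without the second).

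Of the loading factors, Cdt1, which brings the helicase to the origin, rose in Mst Sox9-null cells. It was 3.69 and 3.18 in Mst Sox9-null, 2.79 and 2.96 in Mst Sox9-heterozygous and 2.12 and 2.46 in floxed GFP libraries, 3 groups without overlap, and the Sox9-null difference was 1.15 ± 0.33 (2.22-fold; adjusted p = 0.0468). It was 2.87 and 3.58 in YAP Sox9-null, 3.18 and 3.15 in YAP Sox9-heterozygous and 2.54 and 2.02 in wild type GFP libraries, above the controls in all 4 activated libraries but not called (0.95 ± 0.33 and 0.89 ± 0.33). The call ended without any 1 of 7 libraries: the first (0.98) or second floxed GFP one (1.32), the first (0.90) or second Mst Sox9-null one (1.40), either Mst Sox9-heterozygous one (1.15 each) or the first wild type GFP one (1.15). Orc6, a subunit of the origin recognition complex, was 3.15 and 2.77 in YAP Sox9-null, against 2.09 and 1.88 in wild type GFP libraries, and was not called (0.97 ± 0.38, adjusted p = 0.145).

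Mcm10, a helicase activator needed for origin firing, was the exception among the replication genes: it fell. It lies at chr2:4989714-5012791 on the minus strand. Its log2 CPM was 2.44 and 2.03 in YAP Sox9-null, 2.87 and 4.20 in YAP Sox9-heterozygous and 4.93 and 3.93 in wild type GFP libraries. With Mst deletion it was 2.18 and 0.54 in Sox9-null, 0.53 and 2.30 in Sox9-heterozygous and 4.5 and 4.39 in floxed GFP libraries. All 4 Mst libraries and both YAP Sox9-null ones lay below all 4 controls, while the second YAP Sox9-heterozygous library lay within them. The difference from control was -2.20 ± 0.60 in YAP Sox9-null (0.218-fold; adjusted p = 0.0372), -3.09 ± 0.60 in Mst Sox9-null (0.118-fold; 0.00410), -3.03 ± 0.60 in Mst Sox9-heterozygous (0.122-fold; 0.00707) and -0.90 ± 0.60 in YAP Sox9-heterozygous cells, where it was not called.

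The fall of Mcm10 in Mst Sox9-null cells was called without each library in turn, at -3.91 to -2.27. In Mst Sox9-heterozygous cells it was not called without the first library of that group (-2.15). The YAP Sox9-null call ended without the first (-1.70) or second wild type GFP library (-2.70) or the first (-2.40) or second YAP Sox9-null one (-1.99). Cdc45, Gins1 and Gins2, which act at the same step, were not called in any comparison, with differences from control between -0.54 and 0.57. No other gene shares exon bases with Mcm10 in the annotation.

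Of the polymerase group, Pold1 and Prim1 rose in YAP Sox9-null cells. All 5 genes, Pola1, Pold1, Pole, Prim1 and Rpa2, lay above control there by 0.84 to 1.73, and the other 3 did not pass the test. Pold1, the catalytic subunit of polymerase delta, was 4.36 and 4.27 in YAP Sox9-null, 3.77 and 2.70 in YAP Sox9-heterozygous and 2.40 and 2.76 in wild type GFP libraries, a Sox9-null difference of 1.73 ± 0.36 (3.32-fold; adjusted p = 0.00814). With Mst deletion Pold1 was 4.12 and 3.49 in Sox9-null, 2.85 and 3.48 in Sox9-heterozygous and 2.59 and 2.59 in floxed GFP libraries, above the controls in all 4 but not called (Sox9-null 1.21 ± 0.36, adjusted p = 0.0545). Prim1, the primase that starts each new strand, was 3.80 and 3.88 in YAP Sox9-null, 3.45 and 3.09 in YAP Sox9-heterozygous and 2.55 and 2.65 in wild type GFP libraries, 3 groups without overlap, with a Sox9-null difference of 1.24 ± 0.32 (2.37-fold; adjusted p = 0.0290). In the Mst groups Prim1 was 3.60 and 2.90, 2.07 and 2.66, and 2.55 and 2.67 for Sox9-null, Sox9-heterozygous and floxed GFP. Pole, the leading-strand polymerase, reached 1.34 ± 0.41 in YAP Sox9-null cells (adjusted p = 0.0634) and Pola1 1.02 ± 0.31 (adjusted p = 0.0617). The Pold1 call ended without the first wild type GFP library (1.55) or the first (1.69) or second YAP Sox9-null one (1.78), and the Prim1 call without the first (1.19) or second wild type GFP library (1.30) or the first (1.28) or second YAP Sox9-null one (1.21).

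The clamp loader did not move as a group. The 4 Rfc genes were called in no comparison, and their median difference from control was 0.19 in YAP Sox9-null, 0.17 in YAP Sox9-heterozygous, 0.19 in Mst Sox9-null and -0.18 in Mst Sox9-heterozygous cells. Rfc5 was 4.54 and 4.80 in YAP Sox9-null, 4.87 and 4.28 in YAP Sox9-heterozygous and 3.46 and 3.95 in wild type GFP libraries, with all 4 activated libraries above the controls (0.97 ± 0.31 for Sox9-null, adjusted p = 0.0743). With Mst deletion Rfc5 was 3.80 and 3.20 in Sox9-null, 3.08 and 3.40 in Sox9-heterozygous and 3.59 and 3.86 in floxed GFP libraries, where the heterozygous libraries lay below the controls. Exons of Rfc5 share bases with Wsb2 on the opposite strand.

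Rrm2 encodes the small subunit of ribonucleotide reductase, which makes deoxynucleotides and is limiting in S phase, and lies on the plus strand of chromosome 12. It was 6.0 and 6.19 in YAP Sox9-null, 5.71 and 5.12 in YAP Sox9-heterozygous and 3.73 and 3.02 in wild type GFP libraries. These 3 groups did not overlap, and the difference from control was 2.71 ± 0.36 in Sox9-null (6.56-fold; adjusted p = 0.000237) and 2.04 ± 0.36 in Sox9-heterozygous cells (4.11-fold; 0.00690). With Mst deletion Rrm2 was 4.62 and 4.45 in Sox9-null, 3.31 and 4.31 in Sox9-heterozygous and 3.82 and 3.00 in floxed GFP libraries, and was not called (1.13 ± 0.36, adjusted p = 0.0761, and 0.40 ± 0.36). The YAP Sox9-null call held without each library in turn at 2.36 to 3.07, while the Sox9-heterozygous one ended without the second wild type GFP library (1.68) or the first YAP Sox9-heterozygous one (1.75). The large subunit gene Rrm1 was 4.81 and 4.77 in YAP Sox9-null, against 3.22 and 4.14 in wild type GFP libraries (1.11 ± 0.32, adjusted p = 0.0520). Tyms and Tk1, the thymidylate-making enzymes, were not called in any comparison.

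Lig1, the ligase that joins Okazaki fragments, was 4.41 and 3.88 in YAP Sox9-null, 4.01 and 3.14 in YAP Sox9-heterozygous and 2.26 and 2.71 in wild type GFP libraries. All 4 activated libraries lay above the controls, and the Sox9-null difference was 1.67 ± 0.38 (3.17-fold; adjusted p = 0.0139). In the Mst experiment Lig1 was 3.87 and 3.52 in Sox9-null, 2.07 and 2.94 in Sox9-heterozygous and 2.76 and 2.22 in floxed GFP libraries, where only the Sox9-null libraries were clear of the controls (1.20 ± 0.38, adjusted p = 0.0698). The YAP call ended without the first wild type GFP library (1.44) or the first YAP Sox9-null one (1.40). Exons of Lig1 share bases with Zswim9 on the opposite strand.

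**Figure D3:**
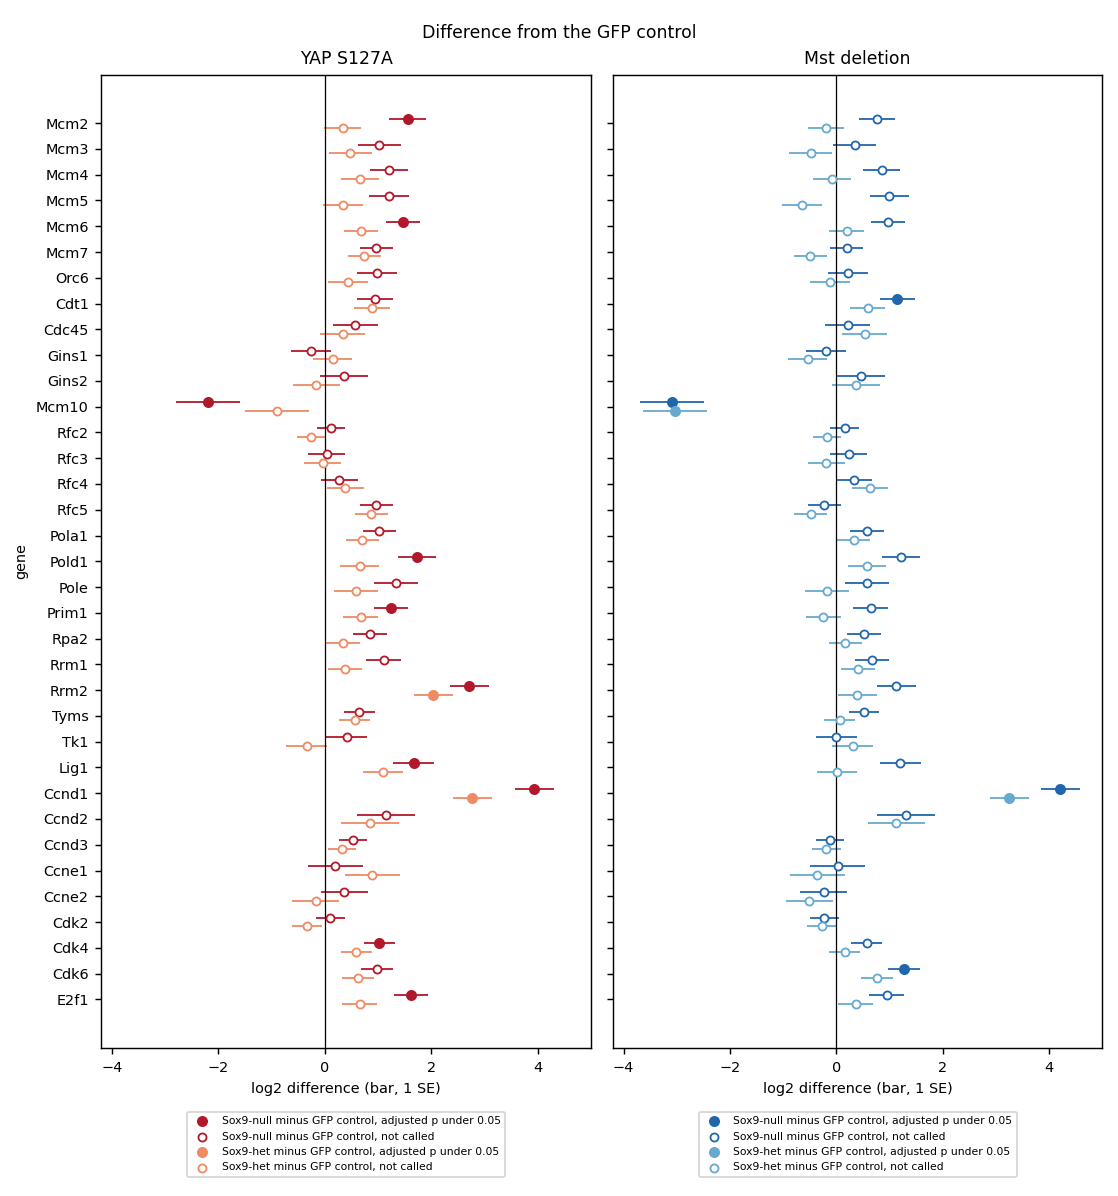
log2 difference from the GFP control (bars, 1 SE) of the 35 kept genes in the YAP experiment (left) and the Mst experiment (right), in 1 colour for Sox9-null and another for Sox9-heterozygous cells, filled where the adjusted p is under 0.05. Most YAP Sox9-null points lie right of zero (33 of 35, against 69.0% of all kept genes). Mst Sox9-heterozygous points scatter around it (18 of 35, against 59.0%), and Mcm10 lies far left in both panels. The counts include Ccnd2, which was kept only through groups where it is high.

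Loss of the second Sox9 allele was compared directly, Sox9-null against Sox9-heterozygous with the same YAP activation. Under YAP S127A 31 of the 35 genes were higher in the Sox9-null group, with a median difference of 0.51 against 0.15 over all kept genes, of which 70.1% were above zero. With Mst deletion 31 of 35 were higher too, with a median of 0.42 against 0.09, and 63.4% of all kept genes above zero. The YAP median was 0.33 without the second YAP Sox9-heterozygous library, and the Mst median was 0.27 and 0.64 without the first and second Mst Sox9-heterozygous library and 0.70 without the second Mst Sox9-null one. The limma fit called 0 of them in either experiment, where it called 0.169% of all kept genes under YAP S127A and 0.0468% with Mst deletion. An unadjusted p under 0.05 was reached by 8 of the 35 in each experiment, and by 707 and 629 of all kept genes. Both Sox9-null libraries lay above both heterozygous ones for 15 of 35 genes in each experiment, against 23.1% and 22.8% of all kept genes under YAP S127A and with Mst deletion. Both lay below for 2 genes (Mcm10 and Ccne1) under YAP S127A and 1 (Cdc45) with Mst deletion, against 5.12% and 7.72% of all kept genes.

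All 6 helicase genes were higher in Sox9-null than in Sox9-heterozygous cells in both experiments. Mcm2 differed by 1.22 ± 0.34 under YAP S127A (adjusted p = 0.291) and by 0.97 ± 0.34 with Mst deletion (0.689). Mcm5 was 3.24 and 3.84 in Mst Sox9-null, against 2.16 and 1.64 in Mst Sox9-heterozygous libraries, a difference of 1.65 ± 0.37 (3.13-fold; adjusted p = 0.420), and 0.86 ± 0.37 under YAP S127A. Mcm6 differed by 0.80 ± 0.32 and 0.79 ± 0.32 in the YAP and Mst experiments. For Mcm2, Mcm5 and Mcm6 the Sox9-null libraries lay above the heterozygous ones in both. Over the 6 helicase genes the median was 0.67 (0.23 to 1.22) under YAP S127A and 0.89 (0.69 to 1.65) with Mst deletion.

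Among the G1/S genes Ccnd1 had the largest difference, 1.17 ± 0.37 under YAP S127A (2.24-fold; adjusted p = 0.414) and 0.96 ± 0.37 with Mst deletion (1.94-fold; 0.747). Pold1 differed by 1.08 ± 0.36 and 0.64 ± 0.36, Lig1 by 0.57 ± 0.38 and 1.20 ± 0.38 and E2f1 by 0.97 ± 0.33 and 0.58 ± 0.33 in the YAP and Mst experiments. Mcm10 went the other way under YAP S127A, by -1.30 ± 0.60 (adjusted p = 0.747), and differed by -0.05 ± 0.60 with Mst deletion. Without the first YAP Sox9-heterozygous library, Ccnd1 (1.85), Mcm2 (1.71) and Tk1 (1.53) were called in the YAP experiment, and without the other 11 libraries in turn 0 genes were called in either experiment.

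The difference between experiments of this Sox9 effect, Mst minus YAP, was called for 0 of the 35 genes by limma, as for 0% of all kept genes, and 0 of the 35 (322 of all kept genes) reached an unadjusted p under 0.05. Its median was -0.02, against -0.05 over all kept genes, and it took either sign when 1 of the YAP or Mst libraries was left out, from -0.27 without the first to 0.25 without the second YAP Sox9-heterozygous library. For Ccnd1 the difference was -0.21 ± 0.52 and for Mcm2 -0.26 ± 0.48, so these data do not separate the effects and do not show them to be equal.

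**Figure D4:**
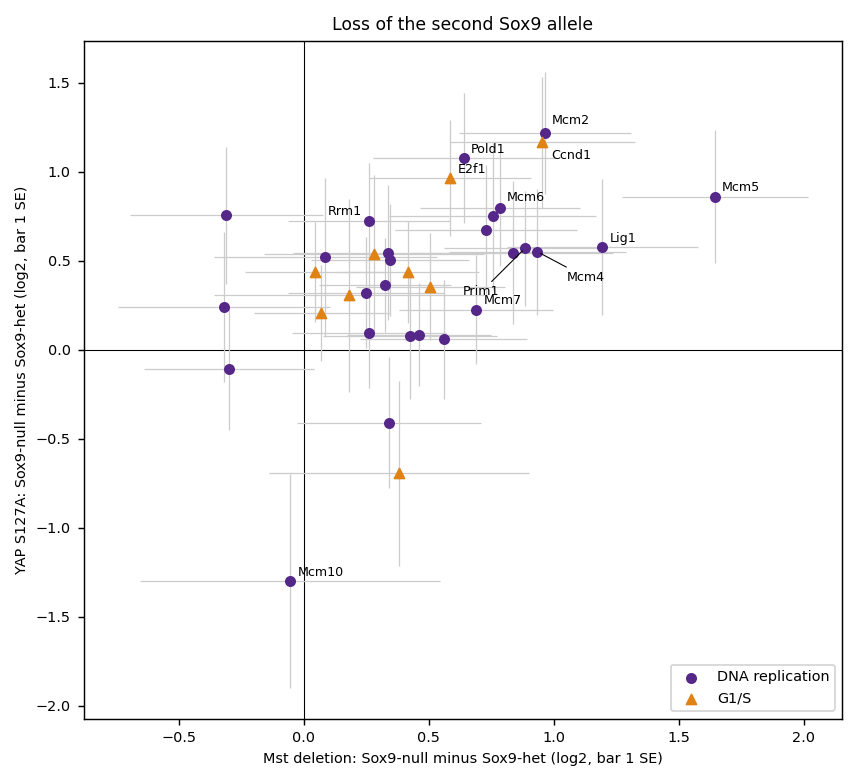
Sox9-null minus Sox9-heterozygous difference (log2, bars 1 SE) of the 35 kept genes with Mst deletion (horizontal) and under YAP S127A (vertical), with replication genes as circles and G1/S genes as triangles, and names for the genes with an unadjusted p under 0.05 in either. In each experiment 31 genes lie above zero, against 70.1% of all kept genes under YAP S127A and 63.4% with Mst deletion. Mcm10 is lowest on the vertical axis at -1.30.

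The way of activating YAP was compared through the Sox9-heterozygous groups, as the Mst difference from control minus the YAP one. The limma fit called 0 of 35 genes (0.197% of all kept genes), and 4 reached an unadjusted p under 0.05 (815 of all kept genes): Rrm2 at -1.64 ± 0.52 (adjusted p = 0.353), Rfc5 at -1.36 ± 0.44 (0.372), Mcm7 at -1.23 ± 0.44 (0.450) and Mcm10 at -2.14 ± 0.85 (0.556). Of the 35, 25 lay below zero, with a median of -0.44 against 0.01 over all kept genes, which was -0.16 without the first YAP Sox9-heterozygous and -0.24 without the first Mst Sox9-heterozygous library (range over all omissions -0.62 to -0.16). Ccnd1 lay on the other side, at 0.48 ± 0.52. The experiments also differ in the mice, the sorting colour and the weeks after injection, so these cannot be told apart from the way of activation. The Yap1 signal itself was 7.45 and 8.01 in YAP Sox9-null, 7.62 and 7.29 in YAP Sox9-heterozygous and 6.64 and 6.44 in wild type GFP libraries, against 6.30 to 6.69 in the 4 Mst libraries and 6.46 and 6.6 in floxed GFP ones.

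Other genes of the pathway were taken from a list of 81, of which 79 were in the table and 70 were kept. Against 6.64%, 1.4%, 6.88% and 3.45% of all kept genes called higher in the 4 groups named in turn, in YAP Sox9-null cells 10 rose and 0 fell, in YAP Sox9-heterozygous cells 6 rose and 0 fell, in Mst Sox9-null cells 9 rose and 0 fell, and in Mst Sox9-heterozygous cells 1 rose and 1 fell. The 10 include Cdkn1c, which is set aside below because it was kept only through groups where it is high. The median differences of the 70 genes from control were 0.49, 0.25, 0.30 and -0.02 in the order of the groups, against 0.21, 0.07, 0.17 and 0.08 over all kept genes. Between Sox9-null and Sox9-heterozygous groups limma called 0 in either experiment, with 8 and 10 of the 70 at an unadjusted p under 0.05 in the YAP and Mst experiments, against 707 and 629 of 10681 kept genes.

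The 4 markers of cycling cells on that list rose in both Sox9-null groups. Top2a, the topoisomerase of dividing cells, was 6.38 and 6.0 in YAP Sox9-null, 5.14 and 4.46 in YAP Sox9-heterozygous and 2.92 and 2.54 in wild type GFP libraries (Sox9-null difference 3.46 ± 0.36, 11-fold; adjusted p = 1.83e-05). Ccna2, the cyclin of S and G2 phase, was 6.58 and 7.34, 6.93 and 5.53, and 1.72 and 3.69 in the same groups (4.25 ± 0.51). Mki67 and Cdk1 rose there as well, by 3.38 ± 0.47 and 2.88 ± 0.43. With Mst deletion the differences in Sox9-null cells were 2.07 ± 0.36 for Top2a, 3.30 ± 0.51 for Ccna2, 2.13 ± 0.47 for Mki67 and 2.22 ± 0.43 for Cdk1, all called. In YAP Sox9-heterozygous cells all 4 were called, at 1.91 to 3.52, and in Mst Sox9-heterozygous cells Ccna2 was called (2.27 ± 0.51). The Sox9-null calls held without each library in turn, except for Mki67 with Mst deletion, which ended without the first floxed GFP (1.80) or the second Mst Sox9-null library (1.85). In YAP Sox9-heterozygous cells the call ended for Top2a without the second wild type GFP library (1.88) or the first of the group (1.73), for Cdk1 without the first wild type GFP library (1.36) or the first of the group (1.40), and for Mki67 without the first wild type GFP library (1.22), either library of the group (1.87 and 2.22) or either YAP Sox9-null one (2.04 each). Ccna2 in Mst Sox9-heterozygous cells ended without the first (2.40) or second floxed GFP library (2.13) or the second of the group (2.03).

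Of 7 listed inhibitors of the cyclin-dependent kinases, 5 were kept, and Cdkn2a and Cdkn2b stayed below the filter, with control means of -1.80 and 0.53. Cdkn2c was called in 3 comparisons with the controls, Cdkn1a in both YAP groups, Cdkn1b in YAP Sox9-null and Cdkn2d in Mst Sox9-null cells. Cdkn2c (p18), an inhibitor of Cdk4 and Cdk6, was 5.36 and 5.47 in YAP Sox9-null, 5.16 and 4.63 in YAP Sox9-heterozygous and 3.11 and 3.94 in wild type GFP libraries, and 5.43 and 5.23, 4.23 and 4.43, and 3.54 and 3.53 in the corresponding Mst groups. It rose by 1.89 ± 0.29 and 1.80 ± 0.29 in YAP and Mst Sox9-null cells and by 1.37 ± 0.29 in YAP Sox9-heterozygous cells, the last not without the first wild type GFP library (0.96) or the first of its group (1.10). Cdkn1a (p21) rose by 1.78 ± 0.38 in YAP Sox9-null and 1.68 ± 0.38 in YAP Sox9-heterozygous cells, and was 5.67 and 5.96 in Mst Sox9-null, 5.80 and 5.12 in Mst Sox9-heterozygous and 5.13 and 5.51 in floxed GFP libraries. The Cdkn1a calls ended without the first wild type GFP library (1.11 and 1.02 for Sox9-null and Sox9-heterozygous), without the second YAP Sox9-null library (1.52 for Sox9-null) and, for Sox9-heterozygous, without either library of the group (2.06 and 1.31) or either YAP Sox9-null one (1.68 each). Cdkn1b (p27) rose by 1.51 ± 0.30 in YAP Sox9-null cells, not without the second wild type GFP (1.13) or second YAP Sox9-null library (1.20). Cdkn2d (p19) rose by 1.33 ± 0.35 in Mst Sox9-null cells, not without the first (1.11) or second floxed GFP library (1.54) or the first of the group (1.07). Cdkn1c passed the filter through 3 libraries alone, at 2.38 and 1.88 in YAP Sox9-null and 1.64 in the first YAP Sox9-heterozygous library, so it was kept only through groups where it is high and no support is drawn from its call.

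Of the remaining pathway genes, Myc, a driver of G1 progression, rose by 1.68 ± 0.30 in YAP Sox9-null and 1.56 ± 0.30 in Mst Sox9-null cells, the second not without the first floxed GFP library (1.38). Uhrf1, which carries DNA methylation onto new strands, rose by 2.81 ± 0.45 in YAP Sox9-null and 1.58 ± 0.45 in Mst Sox9-null cells. The Mst call for Uhrf1 had an adjusted p of 0.044 and ended without 9 of the 12 libraries, at 1.07 to 1.76. Rnaseh2a, a subunit of the enzyme that removes ribonucleotides from DNA, rose by 0.95 ± 0.27 in Mst Sox9-null cells, not without the first (1.10) or second floxed GFP library (0.80) or the first (1.12) or second of the group (0.78). E2f8, a repressor among the E2F factors, fell in Mst Sox9-heterozygous cells, with 1.82 and 0.10 there against 2.76 and 3.70 in floxed GFP libraries (-2.27 ± 0.55, adjusted p = 0.029), not without the second floxed GFP library (-1.79) or the second of the group (-1.41).

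**Figure D5:**
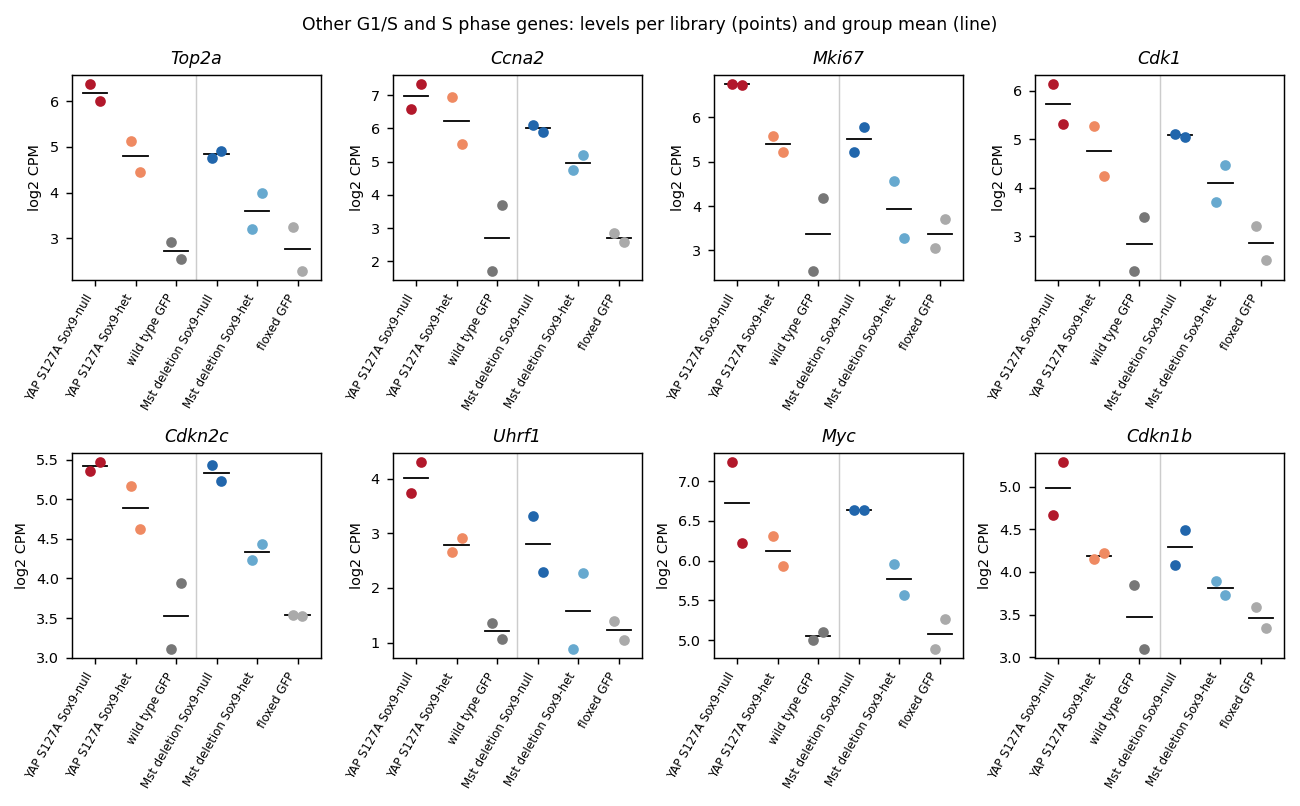
log2 CPM per library (points) and group mean (line) of the 8 other pathway genes with the largest limma t in any comparison, each on its own vertical scale. Top2a and Mki67 are highest in YAP Sox9-null libraries (6.0 to 6.76), and Cdkn2c is as high in Mst Sox9-null as in YAP Sox9-null libraries (5.23 to 5.47).

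In 3 of the 6 groups most of the listed genes differed in the same direction between the 2 libraries. In the YAP Sox9-heterozygous group 29 of 35 were higher in the first library, and the median of the replication genes stood 0.77 above control in the first and 0.35 in the second. In the Mst Sox9-heterozygous group 6 of 35 were higher in the first library, with medians of -0.28 and 0.28. The Mst Sox9-null libraries had 30 of 35 higher in the first, with medians of 0.70 and 0.26. In the other 3 groups there was no such shift, with 21 of 35 higher in the first library in YAP Sox9-null (medians of 0.95 and 0.97), 17 of 35 in wild type GFP and 17 of 35 in floxed GFP libraries. The median gap between the 2 libraries of a group was 0.31 to 0.58 for the listed genes and 0.27 to 0.42 for all kept genes. Counts over the listed genes are therefore not counts of independent genes. In bulk RNA a change in the number of cycling cells cannot be told apart from a change in RNA per cell.

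The level of the whole table also moved. The median difference over all kept genes was 0.21 in YAP Sox9-null and 0.17 in Mst Sox9-null cells against their controls, and -0.06 and -0.07 once library medians were made equal. On that scale the median of the listed genes was 0.71 and 0.28, and after quantile normalization 0.63 and 0.18, against 0.97 and 0.52 as deposited. The share of calls over all kept genes that were higher was 93.3% in YAP Sox9-null and 88.7% in Mst Sox9-null cells, and 80.2% and 73.9% with equal medians, or 78.4% and 73.7% after quantile normalization. In YAP Sox9-null cells Cdk4 and Prim1 were not called with equal medians, with the replicate block or in a fit of the YAP libraries alone, and Cdk4, Prim1 and Lig1 were not called after quantile normalization. With no filter on low values only Ccnd1, Rrm2, E2f1 and Pold1 were called there. In Mst Sox9-null cells Cdt1 was not called under either scaling, with the replicate block, with the stricter filter or in a fit of the Mst libraries alone, and with no filter Ccnd1 was the gene still called. Mcm10 in Mst Sox9-heterozygous cells was not called with no filter or in a fit of the Mst libraries alone. In Mst Sox9-heterozygous cells the median of the listed genes was 0.01 as deposited, -0.10 with equal medians and -0.19 after quantile normalization. The medians of the Sox9-null minus Sox9-heterozygous differences stayed above zero under both scalings, at 0.31 to 0.34 under YAP S127A and 0.24 to 0.28 with Mst deletion.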

How the data were processed

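RNA of sorted hepatocytes was made into libraries with the Ion AmpliSeq panel for mouse genes (a single amplicon each) and sequenced on an Ion S5, per the labels' protocols. The authors deposited 1 table of log2 CPM for 12 libraries in 6 groups; the sources used here do not give the aligner, counting, genome build or any use of strand. The table holds no read counts, so depth is unknown and no count test was run. Its linear values sum to 879620 to 920020 per control library and 938683 to 1011690 per other library. Control means of the 2 experiments differ by a median of 0.00849, and 98.9% of kept genes lie within 0.05. In the Mst experiment the deviations of first and second libraries from their group means sum to about 0 over the groups (median 0.00765, against 0.253 in the YAP experiment). In each of 16080 genes with any deviation, deviations were whole steps of a grid of 0.005 times a factor of that gene (tolerance 3e-06); over kept genes the factor ran from 0.964 to 2.99 without the extreme tails, and the median within-group SD is 0.222 as deposited and 0.134 before this step. No label describes these adjustments, and they affect SEs and p-values.

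From these values, limma 3.58.1 in R 4.3.3 was fitted with 6 group means over all 12 libraries (lmFit, contrasts.fit, eBayes with trend), on genes with log2 CPM of at least 1 in at least 2 libraries, and p-values were adjusted by Benjamini-Hochberg over 10681 genes, two-sided, with a threshold of 0.05. Errors are SEs unless stated. The fit was tested on simulated data. Named genes were the G1/S genes, in each replication class the gene with the largest absolute t within either experiment, genes called lower or called in a comparison of Sox9-null with Sox9-heterozygous groups, and up to 12 other pathway genes by absolute t; further genes are given for the same roles. The members and lists were chosen with earlier results of these data known. Alternatives were equal library medians, quantile normalization, no filter and a stricter one, the libraries of 1 experiment, log2(CPM + 1), a replicate block, the values before rescaling, and leaving out each library.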

Additional observations from a re-analysis of the deposited data

How the results depend on the processing

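No called difference of a named gene reversed its direction under any alternative; 18 of 44 stayed called without each library in turn. Counts are given for the YAP Sox9-null, YAP Sox9-heterozygous, Mst Sox9-null and Mst Sox9-heterozygous groups against control, as 10, 2, 4 and 2 genes called of 35. With no filter they were 4, 1, 1 and 1, where more genes were tested, and with only the libraries of the experiment the Mst Sox9-heterozygous count was 1. On values before the rescaling they were 25, 8, 15 and 5, with 3 for Sox9-null against Sox9-heterozygous under YAP S127A (Ccnd1, E2f1 and Mcm2), 2 with Mst deletion (Mcm5 and Prim1) and 3 for the Mst minus YAP difference (Mcm10, Mcm7 and Rrm2), each 0 as deposited; over all 10681 kept genes the calls in the same order were 2938, 1223, 2817, 2108, 466, 181 and 618. Leaving out 1 library gave 3 to 13, 1 to 2, 2 to 7 and 1 to 2, then 0 to 3 for Sox9-null against Sox9-heterozygous under YAP S127A, and 0 for the other comparisons. Whether replicate numbers pair the libraries could not be told: deviations of same-numbered libraries correlated at -0.12 to -0.06 in the YAP experiment, and in the Mst experiment they sum to about 0 in the deposited table, which by itself makes the correlations negative (-0.64 to -0.31). With the replicate number as a block the counts were 8, 2, 3 and 2. Depth is not given by the table, so what it limits could not be stated.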
